A study of Mus musculus with 6 samples.

Results

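The 10 genes described here are the purinergic receptors P2rx4, P2rx7, P2ry2, P2ry6, P2ry14, Adora2a, Adora2b and Adora3 and the ectonucleotidases Entpd1 and Nt5e. They were chosen by symbol from the 55487 Ensembl genes counted in cultured mouse microglia, and each symbol matched 1 gene. The 6 bulk RNA-seq libraries, 3 Cre- and 3 Cre+, were made from cultured cortical microglia of postnatal day 1 to 3 pups. The labels do not say whether the replicates were separate cultures or animals, so n below counts libraries. Both groups were Nr1d1 fl/fl, and both received 4-hydroxytamoxifen (4-OHT) at 1.5 μM, for 2 days by the labels and for a shorter time in the methods for this line. The Cre+ cultures also carried CAG::CreERT2, a Cre recombinase that 4-OHT brings into the nucleus, and are the REV-ERBα KO group. The CAG promoter is active in nearly all cell types, so any non-microglial cell in a Cre+ culture could recombine as well. The microglia were shaken off mixed glial cultures kept in GM-CSF, a myeloid growth factor, and the study's source data describe the cultures as male. Since Cre and the loss of Nr1d1 always came together, their effects cannot be told apart here.

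Extracellular nucleotides are danger signals that damaged or active cells release. ATP opens the ion channels of the P2X family, and ATP, UTP, UDP and UDP-sugars act on the G protein-coupled P2Y receptors. The ectonucleotidase CD39, the product of Entpd1, removes phosphates from ATP and ADP to give AMP, and CD73, the product of Nt5e, turns AMP into adenosine, which acts on the adenosine receptors. In microglia these receptors are known for process movement, phagocytosis and the release of interleukin-1β.

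Total counts ran from 87545868 to 93942161 in Cre- and from 93701215 to 110909129 in Cre+ libraries. REV-ERBα itself, the product of Nr1d1, is a transcriptional repressor of the circadian clock. Its gene had 204, 111 and 147 counts in Cre- and 110, 88 and 109 counts in Cre+ replicates 1, 2 and 3. In counts per 1000000 on TMM-scaled library sizes (CPM below, unless stated otherwise) it was at 1.73 ± 0.577 (SD, n = 3) in Cre- and 1.01 ± 0.0682 (SD, n = 3) in Cre+ cultures, without overlap. The fitted log2 difference was -0.77 (SE 0.25, adjusted p = 0.0945 in edgeR's quasi-likelihood test over all genes tested). The paper reports the deletion of specific exons in microglia isolated from mice with another Cre line. It also reports the loss of most of the Nr1d1 transcript in microglia of that line. In the libraries used here the ratio of the Cre+ to the Cre- mean was 0.584. The count here is over the whole gene, so it includes any reads of the other exons. The extent of recombination in these libraries was not tested. Of the exon bases of Nr1d1, 263 also lie in Thra on the opposite strand, which had at most 117 counts. The markers of microglia and macrophages, 14 genes, summed to 10217 to 10352 CPM of library totals in Cre- and 10110 to 10358 in Cre+ libraries. The homeostatic markers among them were low, with Tmem119 at 1.85 to 3.55 and Sall1 at 0.335 to 0.903 CPM. The ADP receptor P2ry12, a hallmark of microglia in the brain, was at 0.401 to 1.03 CPM, under the level needed for a test.

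The 2 most abundant members were P2ry6, the receptor for UDP that is known for starting phagocytosis, and P2rx4, an ATP-gated channel of lysosomes and the plasma membrane. Levels of different genes were compared per length, in FPKM (CPM of library totals divided by the length of the gene model in kilobases), as deposited. P2ry6 was at 56.0 ± 3.21 FPKM in Cre- and 57.0 ± 2.80 FPKM in Cre+ cultures, and P2rx4 at 52.4 ± 2.91 and 49.8 ± 0.335 FPKM (SD, n = 3 each). P2ry6 was above P2rx4 in each of the 6 libraries, although their ranges over the libraries overlapped. Together these genes held most of the summed FPKM of the 10 members, with 42.5% for P2ry6 and 38.4% for P2rx4.

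Entpd1 followed at a mean of 12.1 FPKM over the 6 libraries, a level 4.23 times below that of P2rx4, and then P2rx7 at 5.30 and P2ry2 at 3.34 FPKM. None of these 3 overlapped its neighbours in the order. Adora2b at 1.69, P2ry14 at 1.43 and Adora3 at 1.14 FPKM came next, and the neighbours within this trio overlapped. Nt5e at 0.334 and Adora2a at 0.155 FPKM were the lowest, and they overlapped, with Nt5e above Adora2a in 5 of the 6 libraries. So the transcript of CD39 was far more abundant per length than that of CD73, and the low-affinity adenosine receptor gene Adora2b was above the high-affinity one, Adora2a.

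**Figure D1:**
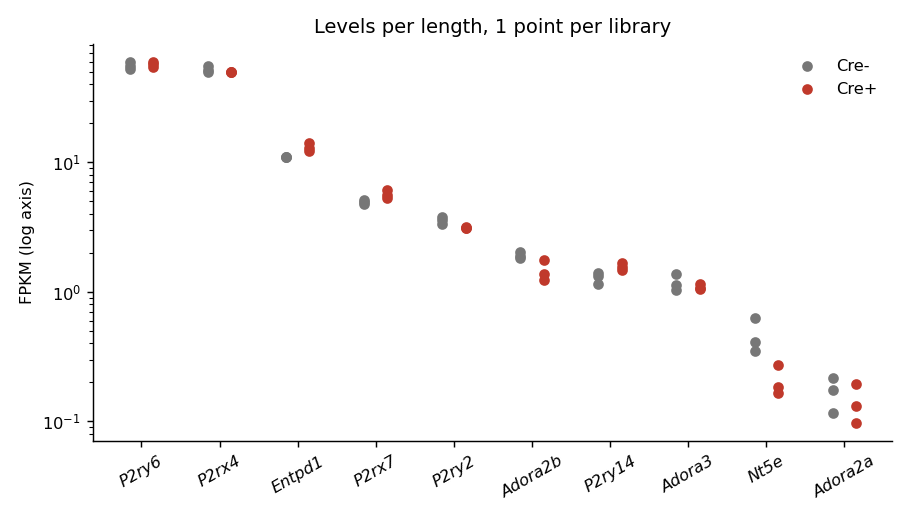
FPKM of the 10 members on a log axis, 1 point per library, Cre- in grey and Cre+ in red, ordered by the mean over the 6 libraries. P2ry6 and P2rx4 lie near 50 FPKM, and Nt5e and Adora2a lie below 1 FPKM in every library.

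Of the 10 members, 9 passed the filter on low values, which kept 11429 genes, and Adora2a did not. Nt5e fell and Entpd1 rose in Cre+ cultures, and the other 7 members tested had adjusted p-values above the threshold of 0.05. Among all genes tested, 5.07% passed this threshold, 2.5% of them higher and 2.56% lower in Cre+ as shares of the genes tested. With 2 of 9 members called, 1 in each direction, the members had no common direction: 4 log2 differences were positive and 5 negative, with a median of -0.08 against 0.00 over all genes tested. The median size of the difference, taken without its sign, was 0.21 for the members and 0.11 for all genes tested. The groups did not overlap for 7 of the 9 members, 3 higher and 4 lower in Cre+, against 24% of all genes tested. On library totals instead of TMM sizes this was 6 of 9, since P2rx4 then overlapped. The members were chosen with earlier results of these data known, so these contrasts with all genes tested describe the list and are not a test of it.

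**Figure D2:**
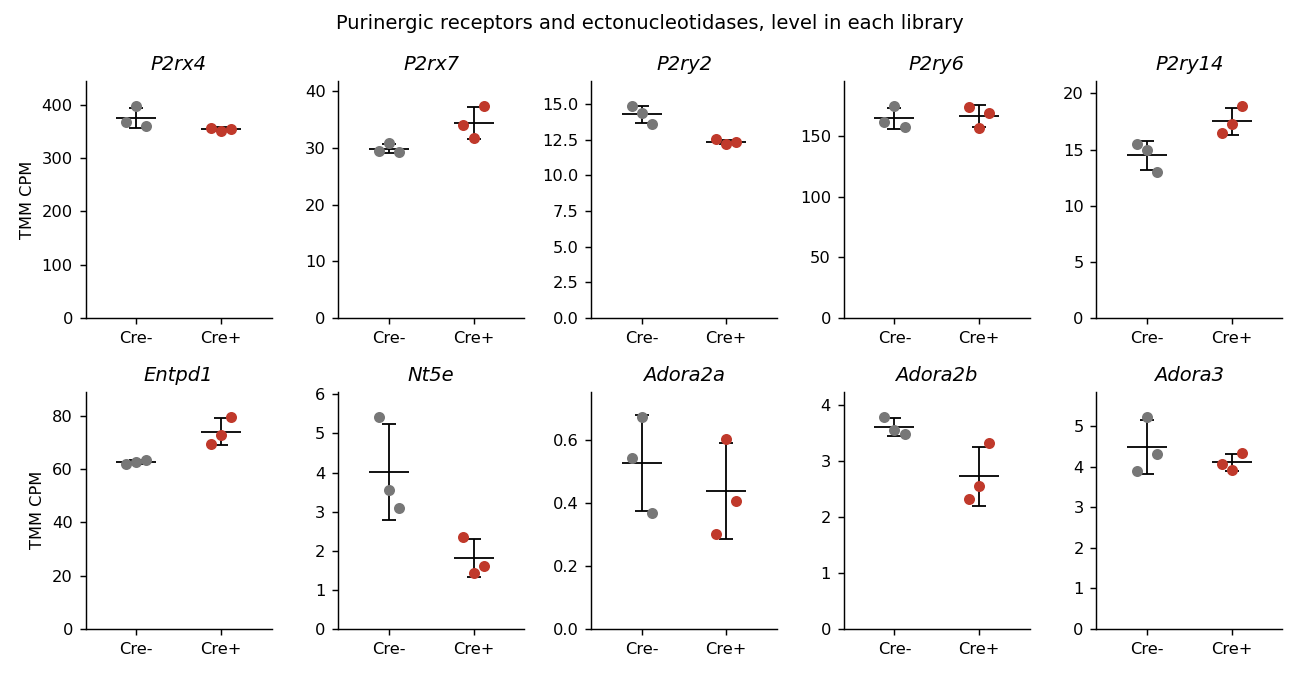
CPM on TMM-scaled library sizes for each member, 1 point per library with the mean and SD of 3 libraries per group, each axis starting at 0. All 3 Cre+ points lie below the Cre- points for Nt5e and above them for Entpd1, whereas the groups overlap for P2ry6, Adora3 and Adora2a.

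Nt5e, which encodes the enzyme that makes adenosine from AMP at the cell surface, was the member with the largest difference. It had 471, 329 and 277 counts in Cre- and 259, 134 and 163 counts in Cre+ replicates 1, 2 and 3, that is 5.42, 3.56 and 3.10 CPM against 2.36, 1.44 and 1.62 CPM. Every Cre+ library was below every Cre- library, and Cre- replicate 1 stood above the rest of its group. The means were 4.02 ± 1.23 and 1.81 ± 0.490 CPM (SD, n = 3 each), a ratio of 0.449. The log2 difference was -1.15 (SE 0.24, 95% confidence interval -1.66 to -0.64, adjusted p = 0.0107 in edgeR's quasi-likelihood test). Without Cre+ replicate 2 the adjusted p was 0.0556, and without Cre+ replicate 3 it was 0.0581. Without Cre- replicate 1, the highest library, the log2 difference shrank to -0.89 with an adjusted p of 0.0486 in the same edgeR test. In a bulk sample, fewer cells that express a gene and less RNA per cell cannot be told apart.

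Nt5e is also known as a marker of fibroblasts and mural cells, and a list of 10 markers of these cells had a lower sum in Cre+ cultures. The list summed to 96.9 to 118 CPM of library totals in Cre- and 46.9 to 53.9 in Cre+ libraries. Most of this was Postn, the gene of a matrix protein and the only marker of the list that was tested and called, at 109 ± 9.87 against 48.6 ± 3.79 CPM (SD, n = 3 each). The other 9 markers summed to 1.88 to 2.96 CPM of library totals in Cre- and 1.07 to 1.32 in Cre+ libraries, each of them below 1 CPM. Their collagen gene Col1a1 was at 0.885, 0.346 and 0.268 CPM in Cre- against 0.128, 0.150 and 0.109 CPM in Cre+ replicates 1, 2 and 3. The matrix gene Dcn was at 0.0690, 0.238 and 0.268 CPM in Cre- and at 0.0182, 0.0215 and 0.0397 CPM in Cre+ replicates 1, 2 and 3. Cre- replicate 1, the highest library for Nt5e, was also the highest for Col1a1 and Postn (116, 113 and 97.9 CPM in Cre- replicates 1, 2 and 3). It was the highest too for the collagen genes Col1a2 (0.494, 0.292 and 0.313 CPM) and Col3a1 (0.448, 0.379 and 0.134 CPM), and the lowest of its group for Dcn. The remaining markers of the list were not compared in this way. Of the 10 markers, 8 had a lower mean in Cre+. This count takes no account of the size of a difference. Lower means in Cre+ were also counted for 9 of 10 endothelial, 8 of 10 neuron and 8 of 10 lymphocyte markers. They were counted for 7 of 10 astrocyte, 7 of 10 neutrophil and mast cell and 6 of 10 oligodendrocyte lineage markers as well. Among microglia and macrophage markers they were a minority, 6 of 14. Of all 11429 genes tested, 5648 had a negative log2 difference. The endothelial sums overlapped between the groups, at 45.4 to 51.8 CPM of library totals in Cre- and 46.8 to 50.9 in Cre+. The lymphocyte sums overlapped too, and the neuron sums were lower in Cre+ (3.77 to 4.66 against 2.61 to 2.79). The part of the fibroblast and mural cell markers in the difference of Nt5e was not tested.

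Among tested genes outside the members, those whose level over the 6 libraries was most like that of Nt5e were Spry3, Gmeb1 and Lyl1. Pearson's r of log2 CPM was 0.985 for Spry3, 0.984 for Gmeb1 and 0.984 for Lyl1 over 6 libraries, which share the 2 groups. Their log2 differences of -0.45, -0.27 and -0.30 were smaller than that of Nt5e. With 6 libraries, 45 genes had an r above 0.95.

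Entpd1, the gene of the enzyme that takes ATP and ADP to AMP one step before CD73, rose in Cre+ cultures. It was at 61.8, 62.7 and 63.5 CPM in Cre- against 69.6, 72.8 and 79.6 CPM in Cre+ replicates 1, 2 and 3. The Cre- libraries lay close together, with a coefficient of variation of 1.39%, and all 3 Cre+ libraries were above them. The means were 62.7 ± 0.874 and 74.0 ± 5.07 CPM (SD, n = 3 each), 18% higher in Cre+. The log2 difference was 0.24 (SE 0.06, 95% confidence interval 0.11 to 0.36, adjusted p = 0.0276 in edgeR's quasi-likelihood test). This call was kept without Cre+ replicate 1 (adjusted p = 0.0222 in edgeR) and lost without any other single library. The adjusted p was 0.0852, 0.0727 and 0.0739 without Cre- replicates 1, 2 and 3, and 0.0610 and 0.135 without Cre+ replicates 2 and 3, in the same edgeR test. The log2 difference stayed between 0.18 and 0.28 in these 6 fits.

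The ratio of Entpd1 to Nt5e in FPKM, chosen after the values were seen and given without a test, was 17.6, 27.2 and 31.6 in Cre- and 45.4, 77.9 and 75.8 in Cre+ replicates 1, 2 and 3. The transcript of CD39 was thus 25.5 ± 7.17 times as abundant per length as that of CD73 in Cre- and 66.4 ± 18.2 times in Cre+ cultures (SD, n = 3 each). These are RNA levels, and neither enzyme activity nor adenosine was measured.

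**Figure D3:**
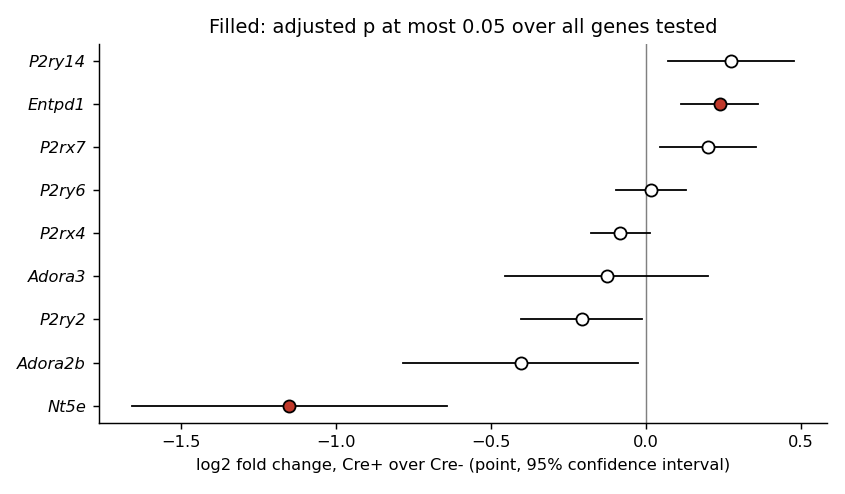
Log2 difference between Cre+ and Cre- for the 9 members tested, with the 95% confidence interval; filled points have an adjusted p of at most 0.05 over all genes tested. Nt5e at -1.15 and Entpd1 at 0.24 are filled, and the intervals of P2rx4, P2ry6 and Adora3 include 0.

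Entpd1 (ENSMUSG00000048120) lies on chromosome 19 at 40612366 to 40741602 (plus strand), and Nt5e (ENSMUSG00000032420) on chromosome 9 at 88327197 to 88372092 (plus strand) of GRCm38, and neither shares exon bases with another annotated gene. REV-ERBα binds the nuclear receptor half-site AGGTCA, most strongly behind an A/T-rich stretch. Promoter windows of 300 bases (around a start, most of them before it, RefSeq, GRCm38.p6) were at hand for 8 of the 10 members, 14 windows in all, and not for P2ry6 and Adora2a. The half-site was searched on both strands and found in 4 of these 14 windows, 1 each of P2rx4, P2rx7, P2ry2 and P2ry14, and in 16.3% of all 32851 windows. The longer REV-ERB/ROR response element, which contains most of the half-site, was in 0 of the 14 windows and in 0.384% of all windows. The E-box CACGTG, the site of the clock activators BMAL1 and CLOCK, was in 2 overlapping windows of P2ry2, which hold the same single site, and in 7.15% of all windows. The windows of the 2 called members, Nt5e at chr9:88327359-88327658 and Entpd1 at chr19:40612116-40612415 and chr19:40659520-40659819, are shown as those of the genes that changed, and none of the 3 motifs was found in them. A window of P2rx7 at chr5:122650133-122650432 is shown beside them as one that holds the half-site, in capitals, on the opposite strand, with its first printed base 192 bases before the start. All 4 are on the plus strand.
Nt5e: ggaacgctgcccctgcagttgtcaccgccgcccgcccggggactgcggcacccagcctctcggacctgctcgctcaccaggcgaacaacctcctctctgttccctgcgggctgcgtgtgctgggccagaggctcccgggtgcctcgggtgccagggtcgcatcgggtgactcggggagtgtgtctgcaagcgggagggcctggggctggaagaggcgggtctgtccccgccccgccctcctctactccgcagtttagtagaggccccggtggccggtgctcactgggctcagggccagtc
Entpd1, first start: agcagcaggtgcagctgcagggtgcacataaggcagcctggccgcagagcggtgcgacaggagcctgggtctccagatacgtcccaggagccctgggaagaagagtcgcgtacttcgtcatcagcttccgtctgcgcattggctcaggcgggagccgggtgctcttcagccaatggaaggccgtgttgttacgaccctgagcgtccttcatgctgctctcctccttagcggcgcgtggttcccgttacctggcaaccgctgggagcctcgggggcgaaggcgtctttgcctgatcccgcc
Entpd1, second start: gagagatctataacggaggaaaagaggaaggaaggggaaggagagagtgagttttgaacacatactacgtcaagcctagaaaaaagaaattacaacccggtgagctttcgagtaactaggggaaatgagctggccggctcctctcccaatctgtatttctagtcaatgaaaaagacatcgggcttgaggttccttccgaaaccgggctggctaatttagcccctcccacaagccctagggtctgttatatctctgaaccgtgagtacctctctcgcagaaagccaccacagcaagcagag
P2rx7: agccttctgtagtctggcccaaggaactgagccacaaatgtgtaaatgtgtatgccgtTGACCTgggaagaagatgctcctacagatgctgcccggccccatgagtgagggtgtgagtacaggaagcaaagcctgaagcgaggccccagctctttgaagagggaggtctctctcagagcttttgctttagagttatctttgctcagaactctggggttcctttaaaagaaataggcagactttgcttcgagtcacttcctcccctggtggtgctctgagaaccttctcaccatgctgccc

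The P2X receptors P2rx7 and P2rx4 are neighbours on chromosome 5 of GRCm38, at 122643911 to 122691432 and 122707544 to 122729738 (both plus strand), with a gap of 16111 bases. P2rx7 encodes the channel that needs high ATP and is known for potassium efflux and inflammasome activation. It was at 29.5, 30.8 and 29.3 CPM in Cre- against 33.9, 31.8 and 37.3 CPM in Cre+ replicates 1, 2 and 3. All 3 Cre+ libraries were higher, but the gap between the highest Cre- and the lowest Cre+ library was small. The log2 difference of 0.20 (SE 0.07, 95% confidence interval 0.05 to 0.36) had an adjusted p of 0.139 in edgeR's quasi-likelihood test. Its exons include those of the microRNA gene Mir8115 over 119 bases, which had 0 counts in every library.

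P2rx4 was at 368, 396 and 360 CPM in Cre- against 357, 351 and 354 CPM in Cre+ replicates 1, 2 and 3. The Cre+ libraries were lower, and the difference between the means was smaller than the range of the Cre- libraries. The log2 difference was -0.08 (SE 0.05, 95% confidence interval -0.18 to 0.01, adjusted p = 0.343 in edgeR's quasi-likelihood test), so a fall of more than 0.18 on this scale lay outside the interval. P2rx4 had the most counts of any member, 32006 to 39116 per library. Its transcript shared stretches of at least 100 bases at 95% identity or more with 3 other genes, so some of these reads are uncertain.

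The P2Y receptors P2ry6 and P2ry2 are neighbours too, at 100937630 to 100974649 and 100996568 to 101012866 of chromosome 7 (both minus strand, GRCm38), 21918 bases apart. P2ry6 was at 162, 174 and 158 CPM in Cre- against 174, 157 and 169 CPM in Cre+ replicates 1, 2 and 3, with the groups fully mixed. Its log2 difference was 0.02 (SE 0.05, 95% confidence interval -0.10 to 0.13, adjusted p = 0.917 in edgeR's quasi-likelihood test). P2ry6 thus had the smallest difference of the 9 members, and its sign changed when single libraries were left out (-0.02 to 0.06).

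P2ry2, the receptor for ATP and UTP that is known for attracting phagocytes to dying cells, was at 14.8, 14.4 and 13.6 CPM in Cre- against 12.5, 12.2 and 12.4 CPM in Cre+ replicates 1, 2 and 3. Every Cre+ library was lower, and the Cre+ group was tight, with a coefficient of variation of 1.20%. The log2 difference of -0.21 (SE 0.09) had an adjusted p of 0.224 in edgeR's quasi-likelihood test.

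P2ry14, the receptor for UDP-glucose and other UDP-sugars, lies on chromosome 3 at 59113855 to 59153618 (minus strand, GRCm38). It was at 15.5, 14.9 and 13 CPM in Cre- against 16.5, 17.3 and 18.8 CPM in Cre+ replicates 1, 2 and 3. The Cre+ libraries were higher without overlap, by 21.1% in the mean, which is a larger relative difference than that of Entpd1. The spread within the groups was larger than for the Cre- libraries of Entpd1, and the log2 difference of 0.28 (SE 0.10, 95% confidence interval 0.07 to 0.48) had an adjusted p of 0.119 in edgeR's quasi-likelihood test.

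The 3 adenosine receptors were at low levels, and none of them passed the threshold. Adora2b, a receptor coupled to the stimulatory G protein that responds to high adenosine, lies on chromosome 11 at 62248984 to 62266453 (plus strand, GRCm38). It was at 3.78, 3.56 and 3.48 CPM in Cre- against 2.32, 2.55 and 3.31 CPM in Cre+ replicates 1, 2 and 3. The Cre+ libraries were lower without overlap, but Cre+ replicate 3 was near the Cre- level. The log2 difference of -0.40 (SE 0.18, 95% confidence interval -0.78 to -0.02) had an adjusted p of 0.225 in edgeR's quasi-likelihood test, and it lay between -0.57 and -0.30 when each library was left out in turn.

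Adora3, a receptor coupled to inhibitory G proteins, was at 3.91, 5.23 and 4.33 CPM in Cre- against 4.07, 3.93 and 4.34 CPM in Cre+ replicates 1, 2 and 3, with overlapping groups. Its log2 difference was -0.13 (SE 0.15, 95% confidence interval -0.45 to 0.20, adjusted p = 0.723 in edgeR's quasi-likelihood test). Adora3 lies on chromosome 3 at 105870858 to 105908926 (plus strand, GRCm38) and shares 109 exon bases with Tmigd3 on the same strand. It also shares 670 exon bases on the same strand with ENSMUSG00000118531, which had 0 counts in every library. Transcripts of Adora3 and Tmigd3 were identical over up to 672 bases, so reads from this stretch could go to either gene or to neither. Tmigd3 had at most 14 counts in a library. How reads in shared stretches were counted was not examined, so the level of Adora3 is uncertain.

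Adora2a, the receptor with high affinity for adenosine that also raises cyclic AMP, lies on chromosome 10 at 75316877 to 75334784 (plus strand, GRCm38). It had 47, 62 and 33 counts in Cre- and 33, 56 and 41 counts in Cre+ replicates 1, 2 and 3. On library totals this was 0.518 ± 0.152 CPM in Cre- against 0.432 ± 0.152 CPM in Cre+ cultures (SD, n = 3 each), with overlapping groups. An exact 2-sided permutation test gave p = 0.6, and the smallest p that 3 against 3 libraries allow is 0.1. In edgeR's quasi-likelihood test with weaker filters, the log2 difference was -0.20 without a filter (SE 0.44, adjusted p = 0.847) and -0.23 with filterByExpr (SE 0.39, adjusted p = 0.789).

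**Figure D4:**
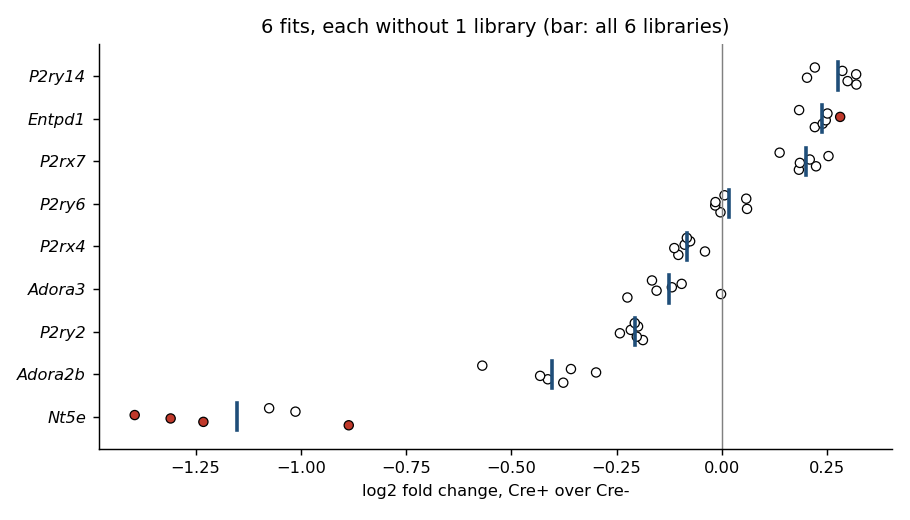
Log2 difference of each tested member in 6 fits that each leave out 1 library, with a bar at the value from all 6 libraries; filled points have an adjusted p of at most 0.05. Nt5e keeps 4 filled points and Entpd1 keeps 1, no other member has one, and P2ry6 lies on both sides of 0.

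Beyond the members, 110 genes of the pathway in 9 lists were counted, of which 71 were tested. Of these 71, 1 was called higher and 2 lower in Cre+, 4.23% against 5.07% of all genes tested, and their median log2 difference was -0.03. None of the 5 other P2X receptor genes was tested, and none exceeded 0.873 CPM of library totals in any library. Of the 8 other P2Y and adenosine receptor genes, 3 were tested and 0 called. P2ry10b was at 21.6 ± 0.953 CPM in Cre- against 25.3 ± 0.636 CPM in Cre+ (SD, n = 3 each, log2 difference 0.23, SE 0.07, adjusted p = 0.0894 in edgeR). The ADP receptor P2ry1 was at 2.22 ± 0.203 and 1.84 ± 0.140 CPM (SD, n = 3 each, adjusted p = 0.489 in edgeR), and the ADP receptor P2ry13 at 2.30 ± 0.683 and 2.06 ± 0.300 CPM (SD, n = 3 each, adjusted p = 0.778 in edgeR).

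Of the 11 other enzymes that convert extracellular nucleotides and nucleosides, 5 were tested, and 2 of these fell. Bst1, which encodes an enzyme that makes cyclic ADP-ribose from NAD, was at 45.4, 44.2 and 48.0 CPM in Cre- against 35.9, 39.3 and 37.0 CPM in Cre+ replicates 1, 2 and 3. The groups did not overlap, and the log2 difference was -0.29 (SE 0.06, adjusted p = 0.0138 in edgeR's quasi-likelihood test). Bst1 shares 98 exon bases with Fbxl5 on the opposite strand, which had up to 6393 counts in a library, and the strand setting of the counting is not given in the sources used here. Its transcript also shared stretches of at least 100 bases at 95% identity or more with 5 other genes, so some of its reads are uncertain. Enpp1, the gene of an enzyme that splits ATP into AMP and pyrophosphate, was at 23.5, 21.6 and 22.1 CPM in Cre- against 17.8, 18.9 and 18.6 CPM in Cre+ replicates 1, 2 and 3. It was lower in every Cre+ library, with a log2 difference of -0.28 (SE 0.08, adjusted p = 0.0463 in edgeR's quasi-likelihood test). Cd38, the second enzyme that makes cyclic ADP-ribose from NAD, was at 26.5 ± 2.84 in Cre- against 32.4 ± 4.24 CPM in Cre+ (SD, n = 3 each), with a log2 difference of 0.29 (SE 0.10, adjusted p = 0.104 in edgeR). Adenosine deaminase, Ada, was at 0.782 to 1.97 CPM in Cre- and 1.24 to 2.16 CPM in Cre+ libraries.

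Leaving out single libraries ended both of these calls. In edgeR's quasi-likelihood test, Bst1 lost its call without Cre- replicate 3 (adjusted p = 0.0658), Cre+ replicate 1 (0.0603) or Cre+ replicate 3 (0.0603). Enpp1 lost it without any single library (adjusted p from 0.0714 without Cre- replicate 2 to 0.146 without Cre+ replicate 1), and also on library totals (0.0555), with the filter of filterByExpr (0.0947), with limma's voomWithQualityWeights (0.0531), with the replicate number as a block (0.0918) and without a filter (0.246). Bst1 also lost its call without a filter (adjusted p = 0.105 in edgeR). With single libraries left out, the log2 difference stayed between -0.33 and -0.26 for Bst1 and between -0.31 and -0.26 for Enpp1.

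**Figure D5:**
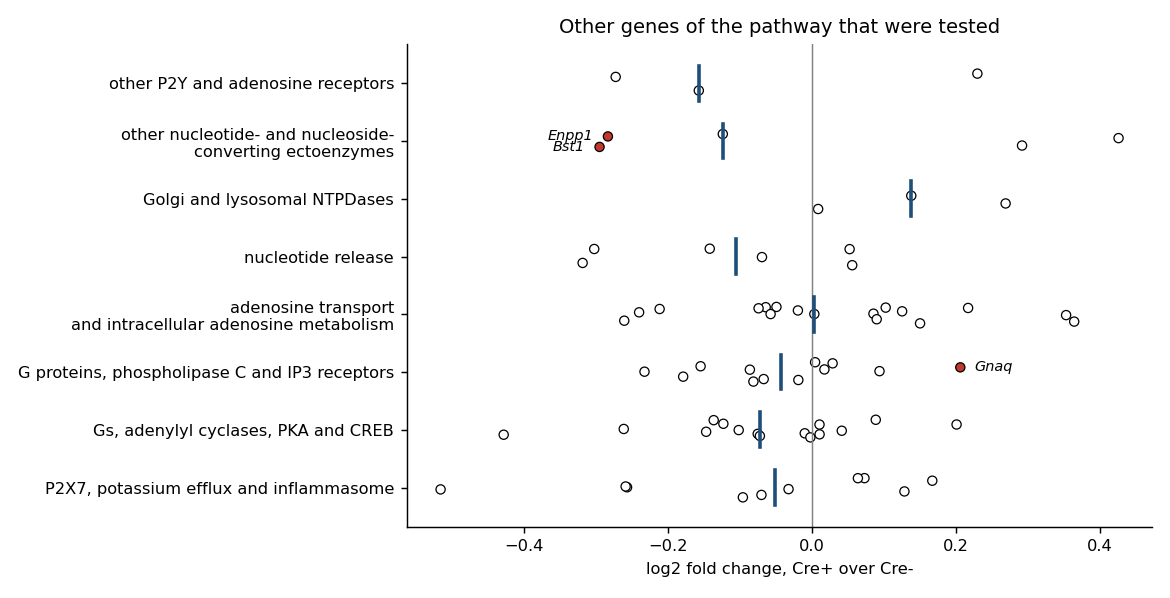
Log2 difference between Cre+ and Cre- for the 71 other pathway genes tested, by list, with a bar at the median of each list; filled points have an adjusted p of at most 0.05. The filled points are Bst1 and Enpp1 below 0 and Gnaq above 0, and the medians of the lists lie between -0.16 and 0.14.

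Downstream of the receptors, 12 of 16 genes of G proteins, phospholipase C and IP3 receptors were tested and 1 rose. This was Gnaq, the α subunit through which P2Y2 and P2Y6 activate phospholipase C, at 230, 226 and 223 CPM in Cre- against 263, 240 and 282 CPM in Cre+ replicates 1, 2 and 3. All 3 Cre+ libraries were higher, with a log2 difference of 0.21 (SE 0.05, adjusted p = 0.0386 in edgeR's quasi-likelihood test). The call was kept without Cre+ replicate 2 (adjusted p = 0.0111) and lost without any other single library (0.0765, 0.0998 and 0.127 without Cre- replicates 1, 2 and 3, and 0.0967 and 0.167 without Cre+ replicates 1 and 3). Gna12 and Gna15, further α subunits, had log2 differences of -0.23 and -0.18 with adjusted p-values of 0.0837 and 0.135 in edgeR. The list's median was -0.04.

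In the list of the stimulatory G protein, adenylyl cyclases, protein kinase A and CREB, which serves Adora2a and Adora2b, 0 of 15 tested genes were called and the median was -0.07. Below the filter, Adcy8 was called lower without a filter (log2 difference -1.89, adjusted p = 0.0122 in edgeR) and with filterByExpr (-1.93, adjusted p = 0.0355 in edgeR), and Adcy1 without a filter only (-2.12, adjusted p = 0.0468 in edgeR, against 0.146 with filterByExpr). Prkar2b, a regulatory subunit of protein kinase A, had the smallest p, at 5.40 ± 0.466 CPM in Cre- against 4.01 ± 0.368 CPM in Cre+ (SD, n = 3 each, adjusted p = 0.110 in edgeR). Of the 10 genes of potassium efflux and the inflammasome that act with P2X7, all 10 were tested and 0 called, with a median of -0.05. Il1b was at 3.38 ± 0.672 CPM in Cre- against 2.37 ± 0.344 CPM in Cre+ (SD, n = 3 each, adjusted p = 0.158 in edgeR), and Casp1 at 30.8 ± 1.63 and 34.6 ± 1.23 CPM (SD, n = 3 each, adjusted p = 0.189 in edgeR).

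Of 10 genes for nucleotide release, 6 were tested and 0 called. The channel gene Panx1 was at 9.18 ± 2.01 CPM in Cre- against 7.36 ± 0.889 CPM in Cre+ (SD, n = 3 each, adjusted p = 0.264 in edgeR), and Lrrc8b at 3.44 ± 1.06 and 2.79 ± 0.608 CPM (SD, n = 3 each, adjusted p = 0.537 in edgeR). Of 23 genes for adenosine transport and adenosine metabolism within cells, 17 were tested and 0 called, with a median of 0.00. The equilibrative nucleoside transporter genes Slc29a3 and Slc29a2 had log2 differences of 0.15 and 0.35 with adjusted p-values of 0.273 and 0.282 in edgeR. All 3 tested genes of the 5 NTPDases of the Golgi and lysosome had positive differences, and 0 were called. The largest was that of Entpd5, at 11.2 ± 1.59 CPM in Cre- against 13.5 ± 0.835 CPM in Cre+ (SD, n = 3 each, adjusted p = 0.208 in edgeR), followed by Entpd7 at 42.9 ± 2.57 and 47.2 ± 2.51 CPM (SD, n = 3 each, adjusted p = 0.273 in edgeR).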

How the data were processed

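RNA from cultured microglia was amplified and sequenced in 6 libraries by the authors, who aligned the reads to GRCm38. Their processing notes name STAR 2.7.9a and featureCounts 2.0.3. The counts, as deposited by the authors, are whole reads per Ensembl gene. The CPM values deposited by the authors are these counts per 1000000 of the library total, and the FPKM values deposited by the authors divide the CPM by the length of the gene model. The FPKM served to compare levels between genes, and everything else was computed from the counts. Symbols, gene types and transcript sequences came from GENCODE M21, which matched 55227 of 55487 genes. Exons and gene positions were those deposited by the authors with the counts.

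The 356 ribosomal RNA genes were removed, and genes above 1 CPM of the library total in at least 4 libraries were tested with the quasi-likelihood test of edgeR 4.0.16 in R 4.3.3, with TMM scaling, no covariate and Benjamini-Hochberg adjustment over all genes tested (threshold 0.05). The standard error is the log2 difference divided by the square root of F. At the fitted common dispersion, the coefficient of variation between libraries of a group was 10.0%. The pipeline was tested on simulated data. Genes were named by a rule: all members, Nr1d1, in each pathway list the called genes and up to 2 further genes with the smallest p, genes with overlapping exons, and the 3 genes most like the member with the smallest p. P2ry12, P2ry13, P2rx3, Enpp3, Adcy1, Adcy8, Tmem119, Sall1, Postn, Col1a1, Col1a2, Col3a1 and Dcn were named after their values were seen. The members and lists were chosen with earlier results of these data known. The labels do not say whether the replicates were separate cultures or animals, so p-values measure the spread between these libraries. Alternatives were other scalings and filters, limma 3.58.1, DESeq2 1.42.0, the replicate number as a block, and leaving out each library.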

Additional observations from a re-analysis of the deposited data

How the results depend on the processing

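Of 72 values from 9 members under 8 alternatives that kept all libraries, 72 kept their direction and 70 their side of the threshold. The exceptions came without a filter on expression, where P2rx7 (log2 difference 0.28, adjusted p = 0.0290 in edgeR) and P2ry14 (0.36, adjusted p = 0.0144 in edgeR) passed. The log2 differences of all 9 members were higher in that setting, not only those of these genes. That of P2rx4 went from -0.0824 to -0.0047, of P2ry6 from 0.0166 to 0.0945, and of Nt5e from -1.15 to -1.07. That setting called 4 members, 8 other pathway genes and 1528 of 43842 genes in all, against 2, 3 and 579 of 11429, and the median over its genes was -0.20. Of the 3 other pathway genes, Gnaq was also called there, and Bst1 and Enpp1 were not. Without a filter, 4 other pathway genes were called higher and 4 lower. Besides Gnaq, the higher ones were Cd38 (log2 difference 0.37, adjusted p = 0.0014 in edgeR), P2ry10b (0.31, adjusted p = 0.0220 in edgeR) and Entpd5 (0.34, adjusted p = 0.0391 in edgeR). With DESeq2, 886 genes and 5 other pathway genes were called, and with filterByExpr 5 other pathway genes. The causes of these differences were not tested.

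With each library left out in turn, 317 to 448 genes, 0 to 2 members and 0 to 2 other pathway genes were called. Over these 6 fits the log2 difference ran from 0.18 to 0.28 for Entpd1, from -1.39 to -0.89 for Nt5e, from -0.98 to -0.50 for Nr1d1 (called without Cre- replicate 2 only, adjusted p = 0.0414 in edgeR) and from -0.0159 to 0.0597 for P2ry6. P2ry6 turned negative without Cre- replicate 1 (-0.0034), Cre- replicate 3 (-0.0159) or Cre+ replicate 1 (-0.0153). For Adora2a, TMM sizes in place of library totals gave a difference of -0.0904 against -0.0863 CPM.

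Libraries with the same replicate number did not deviate together (correlations of 0.015, -0.020 and -0.044). With the replicate number as a block, 430 genes, both called members (Entpd1 at adjusted p = 0.0482 in edgeR) and 1 other pathway gene, Bst1, were called.

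Adora2a had 33 to 62 counts per library, and with 3 libraries per group its permutation test could not go below p = 0.1 at any depth.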

Other observations

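Among pathway genes below the filter, the receptor gene P2rx3 and the ectoenzyme gene Enpp3 were called lower in Cre+ cultures without a filter and with filterByExpr, as was Adcy8, and all 3 were picked after their values were seen. Of all other pathway genes, the fit without a filter called 4 higher and 4 lower, and filterByExpr called 1 higher and 4 lower. P2rx3, an ATP-gated channel best known from sensory neurons, had 35, 41 and 23 counts in Cre- and 8, 3 and 11 counts in Cre+ replicates 1, 2 and 3. The groups did not overlap, and the log2 difference was -2.26 without a filter (adjusted p = 0.0257 in edgeR) and -2.29 with filterByExpr (adjusted p = 0.0438 in edgeR). P2rx3 shares 51 exon bases with Ssrp1 on the opposite strand, which had up to 9788 counts. The 10 neuron markers summed to 3.77 to 4.66 CPM of library totals in Cre- and 2.61 to 2.79 in Cre+ libraries, with 8 of 10 below 1 CPM in every library, and their part in the difference of P2rx3 was not tested.

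Enpp3, the gene of an ectoenzyme that splits ATP and is known as a marker of basophils and mast cells, had 75, 36 and 36 counts in Cre- and 8, 11 and 20 counts in Cre+ replicates 1, 2 and 3. Its log2 difference was -1.99 without a filter (adjusted p = 0.0141 in edgeR) and -2.03 with filterByExpr (adjusted p = 0.0399 in edgeR). The 10 markers of neutrophils and mast cells summed to 9.43 to 11.8 CPM of library totals in Cre- and 7.34 to 8.64 in Cre+ libraries, and their part was not tested. Transcripts of Enpp3 also shared stretches of at least 100 bases at 95% identity or more with 28 other genes, so some of its reads are uncertain.

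The other marker lists, as sums in CPM of library totals, were at 43.2 to 47.7 in Cre- and 42.3 to 48.0 in Cre+ for astrocytes, 106 to 121 and 103 to 112 for the oligodendrocyte lineage, 45.4 to 51.8 and 46.8 to 50.9 for endothelial cells, and 0.607 to 1.50 and 0.325 to 0.886 for lymphocytes.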
